A study of Mus musculus with 6 samples.

Results

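The genes described here are the constitutive subunits of the proteasome and the factors that activate, inhibit or assemble it. They were chosen by gene symbol, as every gene of the table named *Psma*, *Psmb*, *Psmc*, *Psmd*, *Psme*, *Psmf* or *Psmg* followed by digits alone, without the immunoproteasome genes *Psmb8*, *Psmb9* and *Psmb10*. The rule gave 45 of the 19831 genes listed. The data are RNA sequencing of inguinal adipose tissue (iAT), the subcutaneous fat of the groin, from mice at postnatal day 6. The labels give 3 wild-type samples and 3 samples of mice lacking neuropeptide FF receptor-1 (Npffr1-KO), a G protein-coupled receptor. All animals were kept under specific-pathogen-free conditions and total RNA was taken from whole tissue. The labels give no strain, sex, litter or treatment, and do not say how the allele was made or whether animals were pooled.

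The proteasome degrades proteins that carry ubiquitin chains. Its core particle is a stack of rings of alpha subunits, which form the gate, and beta subunits, of which *Psmb5*, *Psmb6* and *Psmb7* encode the catalytic ones. The regulatory particle caps the core: its base holds the ATPases that unfold the substrate, and its lid holds the deubiquitinase *Psmd14*. Other caps, the proteasome activators, open the gate without ubiquitin, and dedicated chaperones join the subunits in order. Transcription of many subunit genes is known to run through Nfe2l1, a factor that binds antioxidant response elements when proteasome activity is short. In lymphocytes and in cells exposed to interferon, the catalytic subunits are exchanged for those of the immunoproteasome.

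The deposited table gives 1 value per gene and genotype, in normalized counts (reads scaled for the size of the library), and no value per sample. The mean of both values equals the mean over 6 libraries, whereas their ratio is a moderated one, held close to 0 on the log2 scale where reads are few. In genes with a mean of 1 to 5, the deposited log2 ratio was in the median 0.264 times the ratio from the reads, and 0.773 times at a mean of 20 to 25. The values therefore carry no SD and no test across genes was possible. Differences are given as the log2 ratio of the Npffr1-KO value over the wild-type value. A ratio of 0.25 or more in size, a fold of 1.19, is called here past the fold and is a description only. The values summed to 23137343 in wild-type and 23640005 in Npffr1-KO iAT. Reads of single libraries could be worked out only for genes with few reads, and these libraries are known by genotype but not by sample number.

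The targeted gene was close to the limit of detection. *Npffr1* had 6 reads over the wild-type libraries, as 1, 0 and 5, and 0 reads in each Npffr1-KO library, a count that allows up to 3 reads over the group (two-sided exact permutation test of normalized reads, p = 0.4, n = 3 per genotype). The wild-type libraries overlapped the Npffr1-KO libraries at 0, so the gene is a weak check of the labels.

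The adipose character of the tissue was checked with 8 adipocyte markers. Their wild-type values went from 3864 (*Pparg*) to 156285 (*Fabp4*), with sums of 269397 in wild-type and 293465 in Npffr1-KO iAT. The median log2 ratio was 0.15, with 6 markers above 0 and 2 below. The ratios went from -0.07 (*Adipoq* and *Retn*) to 1.05 (*Lep*). Markers of other cells were also measured, since a bulk value cannot tell a change in the number of cells of a type from a change in RNA per cell. The 5 T cell markers in the table summed to 5147 and 8426, with log2 ratios from 0.64 to 0.77. The 4 endothelial markers summed to 51024 and 40211, with log2 ratios from -0.43 to -0.28. Skeletal muscle markers were low, summing to 518 and 949, with a median log2 ratio of 0.75 over 7 genes. B cell markers had a median of 0.26, erythroid markers of 0.19 and macrophage markers of 0.13. The macrophage markers were split, 3 above 0 and 3 below, from -0.45 (*Cd163*) to 0.48 (*Cd68*). After centring on genes of like length, described below, the medians of B cell, erythroid and macrophage markers were 0.12, 0.01 and 0.12. Those of adipocyte, T cell, endothelial and skeletal muscle markers were then 0.04, 0.54, -0.30 and 0.58. No defining marker of T cells, B cells or macrophages was at 0. The part of these cell types in the values of the proteasome genes was not tested.

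Of the 45 genes, 44 reached a mean of 10 normalized counts. The median log2 ratio of these 44 was 0.24, beside 0.01 for the 15309 genes of the table with the same minimum. The ratio was above 0 in 41 members, against 51.2% of all genes, and below 0 in *Psmb11*, *Psme4* and *Psmf1*. At or above the fold were 20 members, 45.5%, where 18.0% of all genes were. At or below its inverse was 1 member, *Psmb11*, where 16.6% of all genes were. The ratios were mostly small. With a limit of 0.1, 40 members were at or above it and 1 at or below its inverse, beside 36.3% and 33.3% of all genes. With a limit of 0.5, only *Psme2* and *Psmd10* were at or above it, beside 4.37% of all genes, and none was at or below its inverse, beside 4.78%. Summed over all 45 genes, the values were 82595 in wild-type and 97552 in Npffr1-KO iAT, which is 0.357% and 0.413% of all normalized counts.

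**Figure D1:**
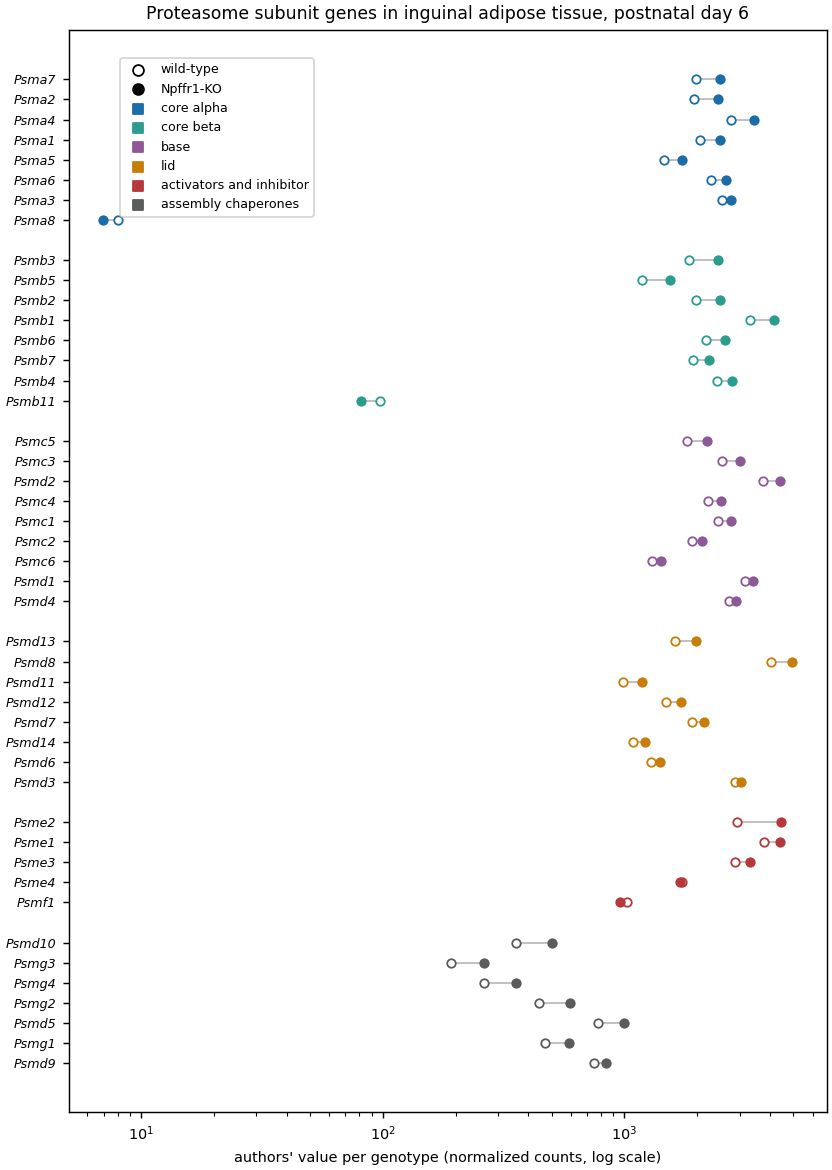
Value of each of the 45 proteasome genes in wild-type (open circles) and Npffr1-KO (filled circles) iAT, in normalized counts on a log axis, 1 value per genotype and no error. Genes are grouped by part of the complex; the values of core, base and lid lie between 984 and 4938 except those of *Psma8* and *Psmb11*, far to the left, and the assembly chaperones lie between 192 and 996.

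The ratio was related to gene length across the whole table. Over 20 classes of length, the median log2 ratio of all genes went from 0.27 in the shortest (up to 837 bases) to -0.15 in the longest (7427 bases and more). The rank correlation of ratio with length was -0.38 over the 15309 genes, and -0.69 over the 44 members, whose values come from the same libraries. Proteasome genes are short, with a median length of 1387 bases, where the median of all genes is 2785. In the class from 837 to 1117 bases, which held 15 members, the median of all genes was 0.21. When each ratio was centred on the median of its length class, the median of the members was 0.10. At or above the fold were then *Psme2* (0.40), *Psmd10* (0.39), *Psmd5* (0.29) and *Psmd2* (0.26), which is 4 of 44, where 12.7% of all genes were. At or below its inverse were 0 members, where 16.0% of all genes were. The centred ratio was above 0 in 38 of 44 members, where 50.0% of all genes were. The sign differed between both scales for *Psma6*, *Psmb4*, *Psmd4*, *Psmd6* and *Psme4*. What lies behind the relation with length was not tested.

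**Figure D2:**
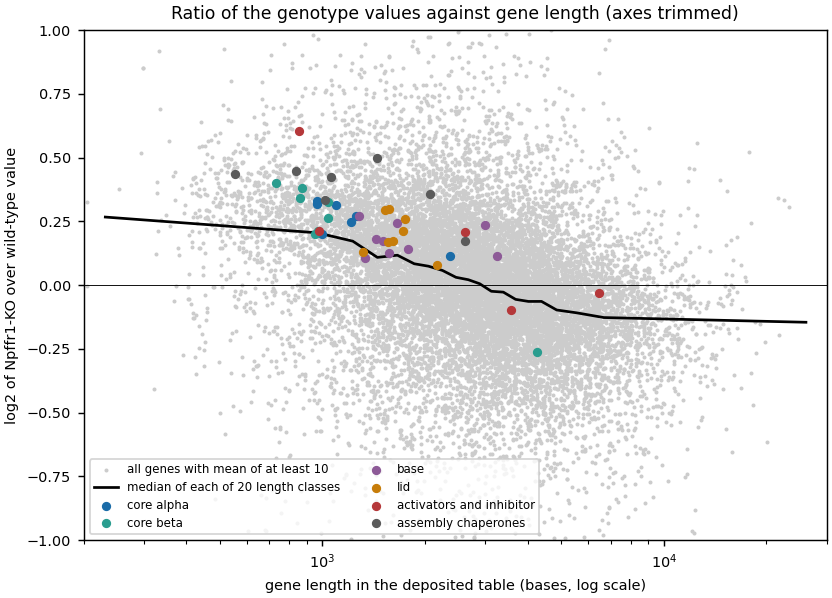
Log2 ratio of the Npffr1-KO over the wild-type value against gene length (bases, log axis) for all genes with a mean of at least 10 (grey) and the proteasome genes (colours by group); the line joins the medians of 20 length classes. The line falls from 0.27 to -0.15, and most proteasome genes lie at its short end and above it, with *Psme2* and *Psmd10* farthest up.

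To describe the promoters of the members, whatever their ratio, the bases before the RefSeq start (GRCm38.p6) were searched on both strands. The letters sought were TGACNNNGC and TGAGNNNGC, the core of the antioxidant response element. An entry was found for 37 members. *Psma8*, *Psmb1*, *Psmb2*, *Psmb7*, *Psmc3*, *Psmd3*, *Psmd7* and *Psmg2* had none. Within 250 bases of the start, 12 of the 37 members (32.4%) held either form, beside 25.7% of 27025 genes. The first form was in *Psmb5*, *Psmb6*, *Psmc6*, *Psmd12* and *Psmd9* (13.5%, beside 11.5%), and the second in 9 members (24.3%, beside 16.3%). Of other short motifs, the GC box GGGCGG was in 21 members (56.8%, beside 35.4%) and CCAAT in 13 (35.1%, beside 37.5%). The interferon-type repeat GAAANNGAAA was in *Psmb3*, *Psmd4* and *Psmd9* (8.11%, beside 3.46%), and the STAT-type motif TTCNNNGAA in *Psmg1* (2.70%, beside 8.13%). A match is a string of letters and not a measured site. Among members with an element, *Psmc6* and *Psmd9* had log2 ratios of 0.13 and 0.17. *Psmd10* and *Psmg3*, at 0.50 and 0.45, held none. A relation of element and ratio was not tested. The stretches outside annotated exons are printed for 2 catalytic subunits and, picked by ratio, an assembly chaperone with a high ratio and the activator with the highest. Each reads in the direction of its gene, with the antioxidant element in capitals, or the GC box in *Psme2*. For *Psme2* the position is counted from the RefSeq start farther upstream. From its other start the same box is 147 to 142 bases away. A further GC box, outside the printed stretch, lies 53 to 48 bases before that other start.
*Psmb5*, chr14:54618023-54618245, minus strand, element 47 to 39 bases before the start: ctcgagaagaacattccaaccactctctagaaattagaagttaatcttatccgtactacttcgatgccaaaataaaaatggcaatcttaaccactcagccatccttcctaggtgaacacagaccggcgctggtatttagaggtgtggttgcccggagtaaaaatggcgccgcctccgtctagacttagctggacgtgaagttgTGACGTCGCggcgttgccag
*Psmb6*, chr11:70525107-70525356, plus strand, element 9 to 1 bases before the start: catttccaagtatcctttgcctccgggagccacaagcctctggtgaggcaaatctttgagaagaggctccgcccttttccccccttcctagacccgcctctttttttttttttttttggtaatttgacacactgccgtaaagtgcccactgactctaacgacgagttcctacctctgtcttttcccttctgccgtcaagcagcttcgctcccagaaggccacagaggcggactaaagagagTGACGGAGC
*Psmg4*, chr13:34162714-34162963, plus strand, element on the other strand 27 to 19 bases before the start: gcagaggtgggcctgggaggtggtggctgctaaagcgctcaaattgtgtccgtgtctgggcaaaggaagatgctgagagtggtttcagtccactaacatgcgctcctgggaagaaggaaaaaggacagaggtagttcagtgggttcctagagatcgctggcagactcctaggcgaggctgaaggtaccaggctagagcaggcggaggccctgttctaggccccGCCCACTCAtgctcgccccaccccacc
*Psme2*, chr14:55591114-55591351, minus strand, GC box on the other strand 67 to 62 bases before the start: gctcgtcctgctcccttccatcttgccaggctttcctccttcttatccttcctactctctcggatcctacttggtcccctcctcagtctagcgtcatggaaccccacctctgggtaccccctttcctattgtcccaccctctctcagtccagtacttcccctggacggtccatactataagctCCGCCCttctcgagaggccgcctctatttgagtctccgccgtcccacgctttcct

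Among the alpha subunits of the core, the 7 expressed genes all had ratios above 0, with a median of 0.27. Past the fold were 4 of them, beside 18.0% of all genes. *Psma7* had the highest ratio, at 1975 normalized counts for wild-type and 2480 for Npffr1-KO (log2 ratio 0.33). *Psma2* (1947 and 2428, 0.32) and *Psma4* (2764 and 3437, 0.31) were next, followed by *Psma1* (2062 and 2489, 0.27). These 4 genes encode structural subunits of the outer ring. *Psma5* was just under the fold, with 1454 and 1726 (0.25 after rounding), and *Psma6* had 2285 and 2624 (0.20). The lowest ratio was that of *Psma3*, with 2544 and 2752 (0.11). *Psma3* is listed with 2374 bases, against 963 for *Psma7*, and after centring on length it was at 0.08 beside 0.12 for *Psma7*. After centring, the alpha subunits had a median of 0.10 and none was past the fold, beside 12.7% of all genes.

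*Psma8*, which takes the place of *Psma7* in the proteasome of the testis, was the only member under the minimum, at 8.02 and 6.97 normalized counts. Its reads were worked out for each library, as 9, 13 and 4 in wild-type and 2, 11 and 6 in Npffr1-KO iAT. These gave 8.46 ± 4.38 and 6.53 ± 4.59 normalized reads (mean ± SD, n = 3 per genotype), and the groups overlapped (two-sided exact permutation test, p = 0.7). The difference was smaller than the spread between libraries of 1 genotype. Leaving out 1 library at a time moved the log2 ratio from these reads between -0.998 and 0.060, and its sign turned without the wild-type library of 13 reads (0.04) and without the Npffr1-KO library of 2 reads (0.060). Per kilobase of gene length, *Psma7* was at 433 times the level of *Psma8* in wild-type and 625 times in Npffr1-KO iAT.

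The beta subunits had a median of 0.30, with 5 of 8 past the fold and 1 past its inverse, beside 18.0% and 16.6% of all genes. *Psmb3*, a structural subunit, had the highest ratio, with 1843 and 2435 normalized counts (0.40). The catalytic subunits were spread over the group, with *Psmb5*, the chymotrypsin-like one, at 1185 and 1541 (0.38), *Psmb6*, the caspase-like one, at 2178 and 2615 (0.26), and *Psmb7*, the trypsin-like one, at 1928 and 2235 (0.21). Between them lay the structural *Psmb2* (1968 and 2493, 0.34) and *Psmb1* (3313 and 4156, 0.33). The lowest of the widely expressed beta subunits was *Psmb4*, with 2423 and 2787 (0.20). Without a value per library, neighbours in this order cannot be told apart. After centring on length the median was 0.09, with *Psmb5* at 0.17, *Psmb6* at 0.06 and *Psmb7* at 0.01. Past the fold or its inverse were then 0 of 8 genes, beside 12.7% and 16.0% of all genes.

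*Psmb5* shares much sequence with other annotated genes. Of its stretches of 31 bases, 71.7% also occur in transcripts of other genes, 59.8% in *Gm3375* alone, so its value depends on how such reads were divided. The same share was 58.7% for *Psma5*, 33.5% for *Psme2*, 32.2% for *Psmc1*, 31.6% for *Psmd2* and 21.7% for *Psmb3*, and under 5% for 31 of the 45 members. *Psmb5* also overlaps the microRNA gene *Mir686* on its own strand. Exons of *Psmg3* overlap those of the protein-coding *Gm26938* on the same strand over 9.68% of their bases. For *Psmd1* and *Gm21972*, also on the same strand, the overlap is 4.14%. The exons of *Psmb7* overlap those of *Nek6* on the opposite strand over 11.8% of their bases, and those of *Psmd13* overlap *Sirt3* over 10.1%. For *Psmd9* and the lincRNA *Gm26745* the overlap is 25.5%, also on opposite strands. Whether the counting used strand is not given in the sources used here.

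*Psmb11*, the catalytic subunit of the proteasome of the thymic cortex, was the only member past the inverse of the fold, with 97.7 and 81.4 normalized counts (-0.26). Its 301 wild-type reads fell as 88, 84 and 129 over the libraries, and its 238 Npffr1-KO reads as 87, 81 and 70. The wild-type libraries held 98.4 ± 25.7 normalized reads and the Npffr1-KO libraries 80.7 ± 3.85 (mean ± SD, n = 3 per genotype, log2 ratio -0.29). In this gene the wild-type library of 129 reads stood above the others, and that of 84 reads lay within the range of the Npffr1-KO libraries. The groups thus overlapped (two-sided exact permutation test, p = 0.2, where 0.1 is the smallest p that 3 against 3 allow). Without the library of 129 reads, the log2 ratio was -0.05. After centring on length the deposited ratio was -0.20. *Psmb11* (chr14:54621433-54629556, plus strand, GRCm38) lies close to *Psmb5* (chr14:54614119-54618022, minus strand). Per kilobase, *Psmb5* was at 59.1 times the level of *Psmb11* in wild-type and 92.3 times in Npffr1-KO iAT.

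The 14 core subunits other than *Psma8* and *Psmb11*, which occur in equal numbers in the particle, did not have equal values. Per kilobase of gene length, the wild-type value went from 1071 for *Psma3* to 3198 for *Psmb1*, with a median of 2077. *Psma5* (1195) and *Psmb5* (1360) were next to the low end, and *Psmb4* (2553), *Psma4* (2522) and *Psmb3* (2522) next to the high end. All 14 had ratios above 0, with a median of 0.29 and 9 past the fold, beside 18.0% of all genes. Levels per kilobase rest on the single length that the table lists for each gene.

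Before centring on length, the base of the regulatory particle had lower ratios than the core. Its median was 0.18, beside 0.27 for the alpha and 0.30 for the beta subunits. Past the fold was 1 of 9 genes, beside 18.0% of all genes. The gene of the base past the fold was *Psmc5*, an ATPase, with 1814 and 2191 normalized counts (0.27). The other ATPases were *Psmc3* (2543 and 3008, 0.24), *Psmc4* (2208 and 2506, 0.18), *Psmc1* (2433 and 2747, 0.18), *Psmc2* (1902 and 2100, 0.14) and *Psmc6* (1298 and 1417, 0.13). *Psmd2*, a scaffold that binds shuttle factors, had 3743 and 4412 (0.24). The other scaffold, *Psmd1*, had 3151 and 3414 (0.12), and the ubiquitin receptor *Psmd4* had the lowest ratio of the base, with 2693 and 2902 (0.11). *Psmd2* and *Psmd1* are long, at 3002 and 3256 bases, and unlike the ATPases both had a higher ratio after centring on length, 0.26 and 0.14. The median of the base was then 0.07, beside 0.10 for the alpha and 0.09 for the beta subunits. *Psmd2* was the 1 gene of the base past the fold on that scale, beside 12.7% of all genes. Per kilobase, the wild-type value went from 830 for *Psmc6* to 2013 for *Psmd4*.

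The lid had a median of 0.19, with 3 of 8 genes past the fold, beside 18.0% of all genes. Those 3 were *Psmd13* (1612 and 1981, 0.30), *Psmd8* (4030 and 4938, 0.29) and *Psmd11* (984 and 1177, 0.26), all scaffold subunits. *Psmd12* (1483 and 1716, 0.21) and *Psmd7* (1895 and 2136, 0.17) were lower. The deubiquitinase *Psmd14*, which removes the ubiquitin chain before degradation, had 1081 and 1216 (0.17). The lowest ratios were those of *Psmd6* (1285 and 1406, 0.13) and *Psmd3* (2878 and 3040, 0.08), the latter being the lowest of all genes of the core, base and lid above 0. After centring on length the median of the lid was 0.07, with 0 of 8 genes past the fold, beside 12.7% of all genes. Per kilobase, *Psmd8* was the highest of the lid at 2636 in wild-type iAT and *Psmd11* the lowest at 565. Taking base and lid as 1 group, 4 of 17 genes were past the fold, 23.5%, next to 64.3% of the 14 core subunits and 18.0% of all genes. The median length was 1564 bases for base and lid and 983 for the core subunits. On the centred scale the medians were 0.07 and 0.10, with 1 of 17 and 0 of 14 genes past the fold, beside 12.7% of all genes.

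**Figure D3:**
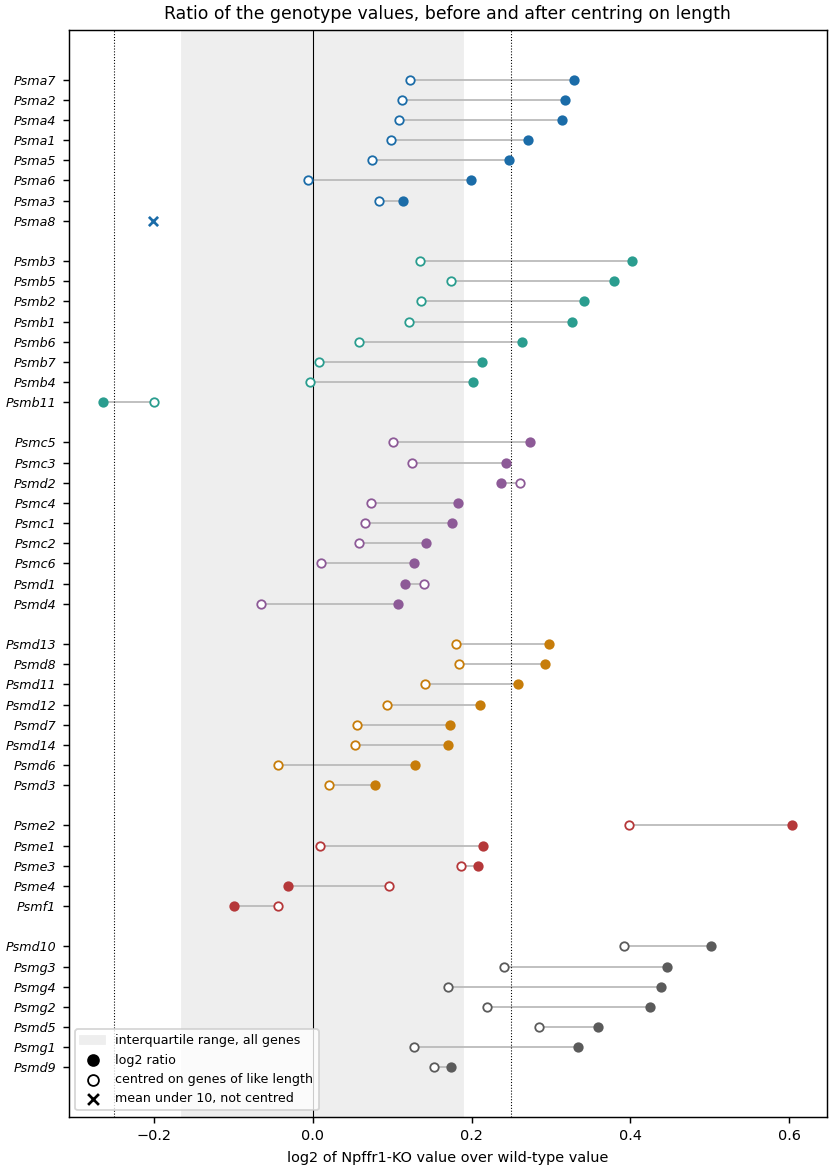
Log2 ratio of the Npffr1-KO over the wild-type value for each proteasome gene (filled) and the same after centring on genes of like length (open). Genes are ordered within core alpha, core beta, base, lid, activators and inhibitor, and assembly chaperones. The band is the interquartile range of all genes before centring, for both kinds of point, and the dotted lines are the fold of 0.25. Centring moves most short genes into the band, while *Psme2*, *Psmd10* and *Psmd5* are beyond the dotted line on both scales and *Psmd2* only after centring (0.24 and 0.26).

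The activators and the inhibitor had the widest range. *Psme2*, a subunit of the interferon-inducible activator, was at 2934 normalized counts for wild-type and 4457 for Npffr1-KO, a log2 ratio of 0.60, the highest of all members and a fold of 1.52. Its partner *Psme1*, which forms mixed rings with it, had 3783 and 4389 (0.21). Their genes lie close together, *Psme1* at chr14:55578123-55581529 on the plus strand and *Psme2* at chr14:55587441-55591113 on the minus strand (GRCm38). Per kilobase, *Psme1* was at 1.13 times the level of *Psme2* in wild-type iAT and at 0.860 times in Npffr1-KO iAT. *Psme2* shares 33.5% of its 31-base stretches with *Psme2b*, which the table lists at 106 and 128 normalized counts (0.27).

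*Psme3*, the subunit of the nuclear activator, had 2870 and 3316 normalized counts (0.21), and per kilobase *Psme1* stood at 3.53 and 3.55 times its level. *Psme4*, the large single-chain activator of nuclei, had 1728 and 1691 (-0.03). *Psmf1*, which encodes an inhibitor that binds the core, had 1026 and 958 (-0.10). Both were thus on the other side of 0 from the rest of the abundant genes. They are also among the longest members, at 6454 and 3559 bases, and after centring *Psme4* was at 0.10 and *Psmf1* at -0.04. The median of these 5 genes was 0.21, and 0.10 after centring. *Psme2* alone was past the fold on both scales, beside 18.0% of all genes before centring and 12.7% after it.

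The assembly chaperones had the highest median ratio, 0.42, with 6 of 7 past the fold, beside 18.0% of all genes. *Psmd10* (gankyrin), a chaperone of the base that is X-linked, had 355 and 503 normalized counts (0.50), second to *Psme2*. *Psmg3* had 192 and 261 (0.45) and *Psmg4* 264 and 357 (0.44), and these form a pair that acts on the alpha ring. The other alpha-ring pair was *Psmg2* (444 and 595, 0.42) and *Psmg1* (469 and 591, 0.33). The remaining chaperones of the base were *Psmd5* (776 and 996, 0.36) and *Psmd9* (747 and 842, 0.17). Centring on length left a median of 0.22, with all 7 genes above 0, beside 50.0% of all genes. *Psmd10* and *Psmd5* were then past the fold, beside 12.7% of all genes. Per kilobase, the wild-type value went from 229 for *Psmg3* to 475 for *Psmg4*, below all 14 core subunits and all genes of base and lid. *Psme4* (268) and *Psmf1* (288) lay in the same range.

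The 3 immunoproteasome genes left out by the rule had higher ratios than their constitutive counterparts. *Psmb8* had 1709 and 2449 normalized counts (0.52), *Psmb9* 676 and 1036 (0.62) and *Psmb10* 1427 and 1791 (0.33), and all 3 were past the fold, as were 18.0% of all genes. After centring on length, *Psmb8* and *Psmb9* were at 0.35 and *Psmb10* at 0.16, so 2 of 3 were past the fold, beside 12.7% of all genes. Per kilobase, *Psmb5* was at 0.974 times the level of *Psmb8* in wild-type iAT and at 0.884 times in Npffr1-KO iAT. *Psmb6* was at 2.51 and 1.96 times the level of *Psmb9*, and *Psmb7* at 1.77 and 1.64 times that of *Psmb10*. In each pair the constitutive gene made up less of the total in Npffr1-KO iAT, by 1 value per genotype. The T cell markers given above had ratios of 0.64 to 0.77, and their part in the values of *Psme2* and of the immunoproteasome genes was not tested.

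**Figure D4:**
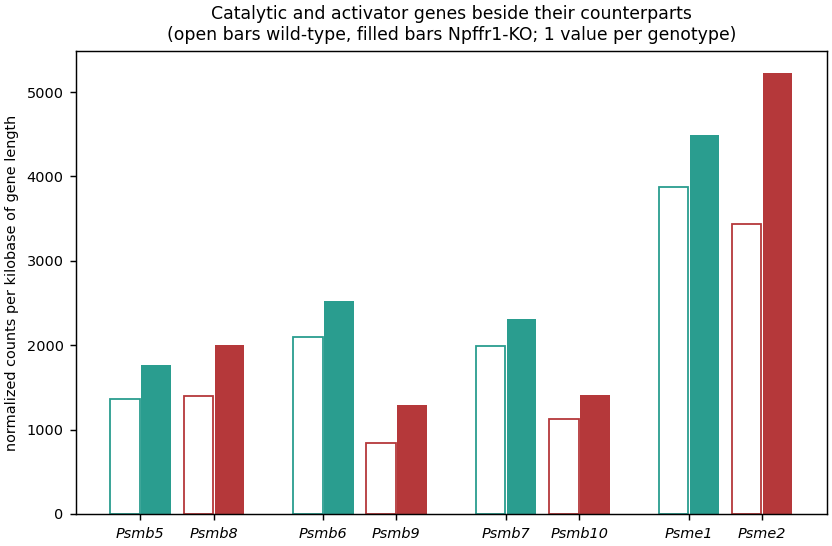
Normalized counts per kilobase of gene length for the catalytic genes beside their immunoproteasome counterparts, and for *Psme1* beside *Psme2*, in wild-type (open bars) and Npffr1-KO (filled bars) iAT; 1 value per genotype and no error. *Psmb8* stands above *Psmb5* in both genotypes, and *Psme2* goes from below *Psme1* to above it.

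A list of 37 genes that work with the proteasome was compared, of which 36 were in the table. Their median log2 ratio was 0.06, with 6 (16.7%) past the fold and 1 past its inverse, beside 18.0% and 16.6% of all genes. After centring on length the median was 0.06, with 2 past the fold and 1 past its inverse, beside 12.7% and 16.0% of all genes. The subunits and the assembly factor that the symbol rule missed were like the members, with *Adrm1*, a ubiquitin receptor, at 2234 and 2600 normalized counts (0.22), *Pomp*, which assembles the beta ring, at 2005 and 2418 (0.27), and *Shfm1*, a small lid subunit, at 1901 and 2442 (0.36). After centring they were at 0.11, 0.00 and 0.09. The ubiquitin gene *Ubb* was at 33973 and 37175 (0.13). The unfoldase *Vcp* had 8294 and 9047 (0.13), and its cofactors *Nsfl1c* and *Ufd1l* were at 0.16 and 0.02. Of 14 associated enzymes and receptors, 2 were past the fold, and those with the most reads, *Ubqln1*, *Rad23b* and *Ipo9*, were at -0.07, -0.12 and -0.12.

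The 8 regulators had a median of 0.02, with 4 above 0 and 4 below. Past the fold was 1 and past its inverse 1, beside 18.0% and 16.6% of all genes. The regulator past the inverse was *Mafg*, named after its values were seen, with 424 and 353 normalized counts (-0.27, and -0.38 after centring). *Nfe2l1*, which drives subunit genes when the proteasome is short, had 5634 and 5874 normalized counts (0.06). *Nfe2l2*, its relative in the oxidative stress response, had 2181 and 2310 (0.08), and *Ngly1*, whose product processes Nfe2l1, had 859 and 788 (-0.13). *Nfe2l3*, a related factor named here after its values were seen, was low enough to give its reads, as 7, 14 and 12 in wild-type and 27, 21 and 17 in Npffr1-KO iAT. The genotypes did not overlap, with 10.8 ± 3.60 and 21.9 ± 3.79 normalized reads (mean ± SD, n = 3, log2 ratio 1.02, two-sided exact permutation test p = 0.1, the smallest possible). Among the 1128 genes with a mean of 10 to 25, all Npffr1-KO libraries lay above all wild-type libraries in 5.85%.

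Ribosomal protein genes, which are short and abundant like proteasome genes, were set beside them. The cytosolic ribosomal protein genes had a median log2 ratio of 0.29 over 75 genes, with 56 (74.7%) past the fold and 1 past its inverse. The mitochondrial ribosomal protein genes had a median of 0.30 over 76, with 53 (69.7%) past the fold, beside 18.0% of all genes. After centring on length, 2 cytosolic and 14 mitochondrial genes were past the fold, beside 12.7% of all genes. On that scale the medians were 0.07 and 0.14, on either side of the 0.10 of the proteasome genes. No difference between these lists and the proteasome genes was tested.

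**Figure D5:**
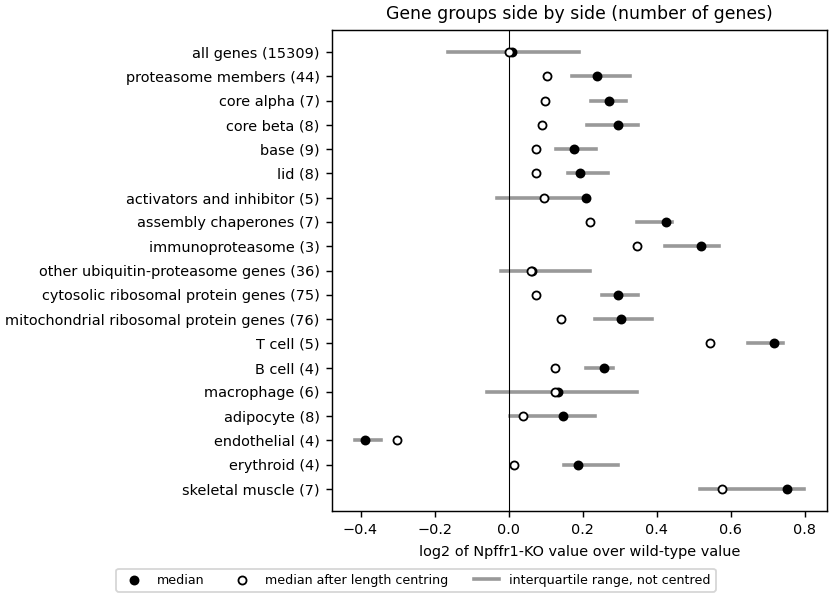
Median log2 ratio of the Npffr1-KO over the wild-type value for all genes, the proteasome genes and their groups, and the comparison lists, before (filled) and after (open) centring on length, with the interquartile range of the genes as a bar (number of genes in brackets). The core and ribosomal protein medians lie from 0.27 to 0.30 and move to 0.14 or less after centring, and the T cell and immunoproteasome medians move from 0.72 to 0.54 and from 0.52 to 0.35.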

How the data were processed

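RNA from 3 wild-type and 3 Npffr1-KO samples of iAT was sequenced. The submitters' processing notes name Bowtie2, RSEM and DESeq2, without versions or roles, and the genome build is not given in the sources used here. The authors deposited 1 signal per gene and genotype, in normalized counts, with a gene length. They also deposited the log2 fold changes and p-values of their own comparison and a table of 90 genes chosen with them, none of which was used here.

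Groups were taken from the labels. The log2 ratio of both values was computed without a pseudocount for 15309 genes reaching a mean of 10, and centred on the median gene of 20 length classes as an alternative. Without values of single samples, no test across genes was run. Size factors (0.916 to 1.04) were read from 585 genes with a single read, and from them the whole reads of all 5650 genes with a mean up to 25, each with exactly 1 matching combination. The search was tested on simulated data. For *Psmb11* the search was extended after the data were seen. Intervals and floors cover counting error only, and p-values measure only the spread between these libraries, which may be technical.

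Every member could be named. Values are given for the 2 highest and 2 lowest in ratio or level of each group, the catalytic genes and their counterparts, *Npffr1*, members under the minimum, and the 3 genes of highest mean of other lists. *Nfe2l3*, *Mafg* and genes at the ends of marker ranges are given besides. Some genes of these lists are not reported here. Members and lists were chosen with earlier results of these data known. Alternatives were other pseudocounts (1 and 10), other minimums, other folds, centring, and leaving out libraries. Places, exon overlaps and shared stretches of 31 bases came from GENCODE M21 (GRCm38) and promoters from RefSeq (GRCm38.p6). Python 3.11.15, NumPy 2.4.6, pandas 2.3.3, SciPy 1.17.1 and matplotlib 3.10.9 were used.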

Additional observations from a re-analysis of the deposited data

How the results depend on the processing

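The values rest on 1 moderated number per genotype, so the spread between libraries is unknown for all members except *Psma8* and *Psmb11*, and depth limits those. Centring on the median gene, pseudocounts of 1 and 10 and minimum means of 1 and 100 left the sign of every member tested under them, whereas centring on length moved 36 of 44 members by over 1.5 times and turned the sign of 5. Under it the median log2 ratio was 0.10 for all members, 0.10 for core alpha, 0.090 for core beta, 0.074 for base, 0.075 for lid, 0.10 for activators and inhibitor and 0.22 for assembly chaperones, and the number of members at or above the fold was 4. With a fold of 0.1 this number was 40, and with 0.5 it was 2. The number at or below the inverse fold was 0 under centring on length, a minimum mean of 100, a pseudocount of 10 or a fold of 0.5. In the order by wild-type value, 5 of the first 10 members stayed among the first 10 per kilobase.

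Leaving out 1 library at a time, the log2 ratio from reads went from -0.998 to 0.060 for *Psma8*, with reversals at 0.044 and 0.060, and from -0.40 to -0.05 for *Psmb11*, with -0.05 without the wild-type library of 129 reads. The length-centred signs that turned were those of *Psma6* (-0.01), *Psmb4* (0.00 after rounding, below 0), *Psmd4* (-0.07), *Psmd6* (-0.04) and *Psme4* (0.10), and the cause was not tested. No paired analysis was possible because the table lists 1 value per genotype and the libraries found from low genes carry no replicate number.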
